A study of Homo sapiens with 24 samples.

Results

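The 10 imprinted genes H19, IGF2, CDKN1C, KCNQ1OT1, MEG3, PEG3, PEG10, MEST, SNRPN and GRB10 were examined for 3 histone marks, out of 64449 genes of all types in GENCODE release 44 on hg19 (GRCh37). They are well known imprinted genes and were taken by name. For each gene, windows of 5 kb to each side of every annotated transcription start site (TSS) were merged, and the length covered by peaks was counted in bp in every list. The marks were trimethylation of lysine 4 (H3K4me3, found at active and poised promoters), acetylation of lysine 27 (H3K27ac, found at active promoters and enhancers) and trimethylation of lysine 27 of histone H3 (H3K27me3, deposited by Polycomb repressive complex PRC2).

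Imprinted genes are expressed mainly from the copy inherited from 1 parent. Their imprinting control regions carry DNA methylation on 1 parental copy, which is set in the germ line, and the unmethylated copy often carries H3K4me3. Several lie in clusters with a long noncoding RNA, such as H19 beside IGF2 and KCNQ1OT1 beside CDKN1C, and many of them act in fetal and placental growth. A peak list counts cells and alleles together, so a promoter marked on 1 parental copy only cannot be told apart from a promoter marked on both copies.

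The cells were PANC-1, an established human line from a pancreatic ductal carcinoma. The 3 groups, with 2 libraries each for every mark, were cells transfected with a control siRNA (siControl), cells with the control siRNA given 10 ng/ml TGFβ for 48 h (siControl+TGFβ), and cells with an siRNA against PHF13 given the same TGFβ treatment (siPHF13+TGFβ). TGFβ is a cytokine that drives epithelial to mesenchymal transition, and PHF13 is a chromatin protein that binds H3K4me3. The comparisons therefore asked what TGFβ changed and what depletion of PHF13 changed under TGFβ, and both used the siControl+TGFβ libraries. The depletion itself was not measured by these lists: H3K4me3 covered the PHF13 start sites in all 6 lists.

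The H3K4me3 lists held 27869 to 39202 peaks, the H3K27ac lists 6004 to 36104 and the H3K27me3 lists 59573 to 165717, and the number of reads behind them is unknown. In each mark the shortest list was that labelled siPHF13+TGFβ replicate 1, and its 6004 H3K27ac peaks covered 1.89 Mb against 11.02 to 31.88 Mb in the other H3K27ac lists. The peak names inside the lists go against 2 of the labels. Lists labelled siPHF13+TGFβ carry peak names with NCT, the study's short form for TGFβ-treated control cells, and lists labelled siControl+TGFβ carry another code. If those names are right, the labels of these groups are exchanged, the difference between them has the opposite sign, and the effect of TGFβ is that of the lists labelled siPHF13+TGFβ against siControl. The peak names alone do not show which is right, and groups are named by their labels below. The epithelial genes KRT8, KRT18, KRT19, EPCAM and SOX9 carried H3K4me3 in 6 of 6 lists, the hepatocyte gene ALB in 0, and the leukocyte genes PTPRC and CD3E in 2 and 3.

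The promoters show where the marks lay. RefSeq (GRCh38.p14) gave 18 promoters of 300 bases, from 250 before to 50 after the start, for 5 of the 10 genes (H19, MEG3, MEST, SNRPN and GRB10), some of which overlap within a gene, numbered here in the order of the RefSeq table. Each was found exactly 1 time near its gene in GRCh37. The following were chosen to show at least 1 promoter of each of the 5 genes, with marked and unmarked promoters of the same gene for GRB10 and SNRPN. They run 5′ to 3′ along the gene, and capitals mark CpG dinucleotides, the sites of DNA methylation.
H19 promoter (chr11:2022447-2022746, minus strand): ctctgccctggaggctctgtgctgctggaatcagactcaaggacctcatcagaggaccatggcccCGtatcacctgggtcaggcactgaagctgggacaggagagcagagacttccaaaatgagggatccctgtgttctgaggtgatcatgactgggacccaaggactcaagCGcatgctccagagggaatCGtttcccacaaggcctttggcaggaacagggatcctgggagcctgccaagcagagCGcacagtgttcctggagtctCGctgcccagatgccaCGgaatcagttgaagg
GRB10 promoter 2 (chr7:50860522-50860821, minus strand): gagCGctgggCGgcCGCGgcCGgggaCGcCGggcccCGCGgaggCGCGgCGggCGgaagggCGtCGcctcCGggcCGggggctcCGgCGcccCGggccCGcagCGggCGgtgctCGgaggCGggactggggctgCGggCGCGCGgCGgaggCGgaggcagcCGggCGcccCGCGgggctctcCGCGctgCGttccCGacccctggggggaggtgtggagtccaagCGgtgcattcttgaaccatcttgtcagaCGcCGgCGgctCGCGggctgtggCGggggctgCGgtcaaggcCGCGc
GRB10 promoter 4 (chr7:50800001-50800300, minus strand): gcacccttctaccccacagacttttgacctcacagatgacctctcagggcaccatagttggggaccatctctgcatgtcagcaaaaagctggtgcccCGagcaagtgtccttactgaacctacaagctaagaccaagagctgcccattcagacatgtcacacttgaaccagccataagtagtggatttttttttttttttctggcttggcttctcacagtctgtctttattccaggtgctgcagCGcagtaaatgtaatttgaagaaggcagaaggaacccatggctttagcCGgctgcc
SNRPN promoter 4 (chr15:25201197-25201496, plus strand): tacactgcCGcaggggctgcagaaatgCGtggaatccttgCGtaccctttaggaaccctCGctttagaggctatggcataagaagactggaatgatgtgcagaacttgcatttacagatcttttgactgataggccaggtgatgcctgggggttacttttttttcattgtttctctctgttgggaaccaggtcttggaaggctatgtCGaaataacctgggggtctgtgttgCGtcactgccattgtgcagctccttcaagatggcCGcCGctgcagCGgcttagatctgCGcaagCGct
SNRPN promoter 2 (chr15:25107869-25108168, plus strand): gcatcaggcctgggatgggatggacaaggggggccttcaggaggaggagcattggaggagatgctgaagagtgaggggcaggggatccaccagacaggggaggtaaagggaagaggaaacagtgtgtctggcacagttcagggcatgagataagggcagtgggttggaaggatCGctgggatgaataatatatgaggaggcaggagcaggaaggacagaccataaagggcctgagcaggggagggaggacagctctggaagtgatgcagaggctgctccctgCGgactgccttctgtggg
MEST promoter 2 (chr7:130125938-130126237, plus strand): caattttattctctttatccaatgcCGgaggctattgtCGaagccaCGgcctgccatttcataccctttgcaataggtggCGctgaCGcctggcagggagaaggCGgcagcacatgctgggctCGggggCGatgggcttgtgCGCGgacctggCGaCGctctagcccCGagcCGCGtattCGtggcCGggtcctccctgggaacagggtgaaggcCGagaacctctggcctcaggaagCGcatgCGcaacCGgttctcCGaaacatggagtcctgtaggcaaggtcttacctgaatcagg
MEG3 promoter 1 (chr14:101292195-101292494, plus strand): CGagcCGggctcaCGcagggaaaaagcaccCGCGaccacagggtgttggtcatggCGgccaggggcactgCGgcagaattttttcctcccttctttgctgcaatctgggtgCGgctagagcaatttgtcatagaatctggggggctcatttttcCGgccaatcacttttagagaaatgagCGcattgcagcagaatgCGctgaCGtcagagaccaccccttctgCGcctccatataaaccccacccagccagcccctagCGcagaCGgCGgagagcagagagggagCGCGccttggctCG

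H3K4me3 touched 13 of these 18 promoters in at least 1 list, 8 of them in all 6 lists, and H3K27me3 touched 1. RefSeq gave 1 promoter for H19. Away from it, 7 of the gene's 24 annotated start sites had H3K4me3 within 500 bp in all 6 lists. The printed H19 promoter held 6 CpG (observed over expected 0.24). H3K27me3 covered all 300 bases of it in 6 of 6 lists, and neither H3K4me3 nor H3K27ac touched it in any list. GRB10 promoter 2 was the opposite case. It held 49 CpG with 81.7% GC, and H3K4me3 covered its 300 bases in 6 of 6 lists and H3K27ac in 5, with no H3K27me3. GRB10 promoter 4, inside the same gene, held 3 CpG and no mark. SNRPN promoter 4 held 11 CpG and H3K4me3 over all 300 bases in 6 lists, whereas SNRPN promoter 2, upstream, held 2 CpG and no mark. The 13 promoters with H3K4me3 held 11 to 49 CpG and the 5 without it held 2 to 7, against a median of 14 over the 35116 promoters in the RefSeq table. These promoters share genes and sequence, so the split is a description of these genes without a test.

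**Figure D1:**
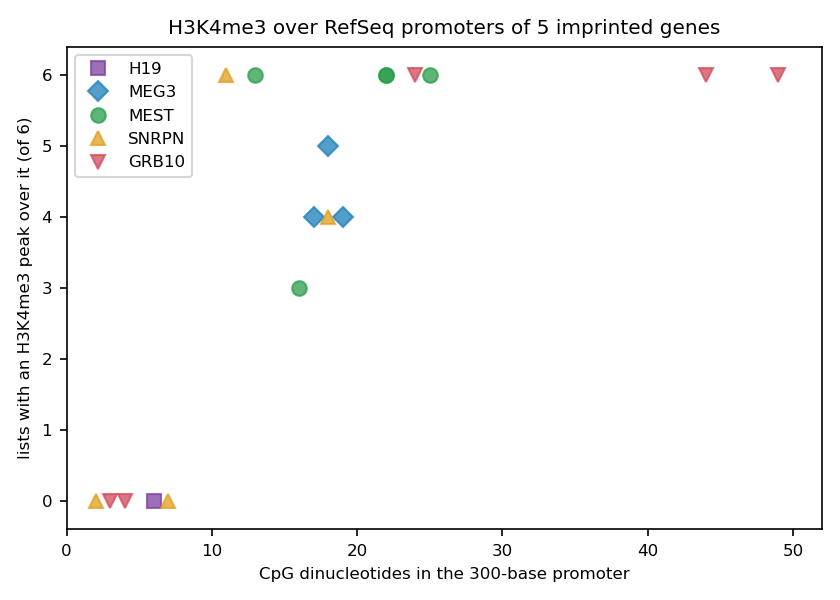
CpG dinucleotides in each 300-base RefSeq promoter (x axis) against the number of the 6 H3K4me3 lists with a peak over it (y axis), 1 point a promoter, for 5 imprinted genes. Promoters with 2 to 7 CpG lie at 0 lists and those with 11 to 49 CpG at 3 to 6 lists.

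3 short motifs were searched on both strands of the promoters: GGNGGCAG, part of the core recognised by the insulator protein CTCF, AANATGGCG, recognised by YY1, and TGCCGC, recognised by ZFP57, a zinc finger protein that maintains imprints. GGNGGCAG can share its end with TGCCGC read on the opposite strand. TGCCGC lay in all 3 MEG3 promoters, in MEST promoters 1, 2, 4 and 5, in SNRPN promoters 3 and 4, and in GRB10 promoter 1, and 16.7% of all table promoters hold it. GGNGGCAG lay in GRB10 promoters 1, 2 and 3, MEST promoters 1 and 2, and SNRPN promoters 1 and 2, and 16.7% of all promoters hold it too. AANATGGCG was found in none of the 18, and 3.19% of all promoters hold it. These are matches of letters and no measure of binding.

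9 of the 10 genes carried an H3K4me3 peak in all 6 lists, against 37.4% of all 64449 genes, and PEG3 carried none. For H3K27ac the count was 0 of 10 against 10.6%. H19 and PEG3 had no H3K27ac in any list, CDKN1C and MEST had it in 2 lists, and IGF2 in 4. The list labelled siPHF13+TGFβ replicate 1 held no H3K27ac peak at any of the 10. Without that library 5 genes, KCNQ1OT1, MEG3, PEG10, SNRPN and GRB10, carried H3K27ac in every remaining list. The 10.6% is for all 6 lists, and no share of all genes was counted without that library. H3K27me3 lay at 4 genes in all 6 lists, H19, IGF2, CDKN1C and KCNQ1OT1, all on chromosome 11, against 18.3% of all genes. At KCNQ1OT1 the strongest H3K27me3 peak ranked only at 38.2 to 92.1% of the lists. With windows of 2.5 kb, the 50% strongest peaks or lists of equal length, only H19, IGF2 and CDKN1C remained. The windows of the 10 genes differ in total length from 10022 to 98315 bp, and the shares over all genes include many short windows and silent genes.

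**Figure D2:**
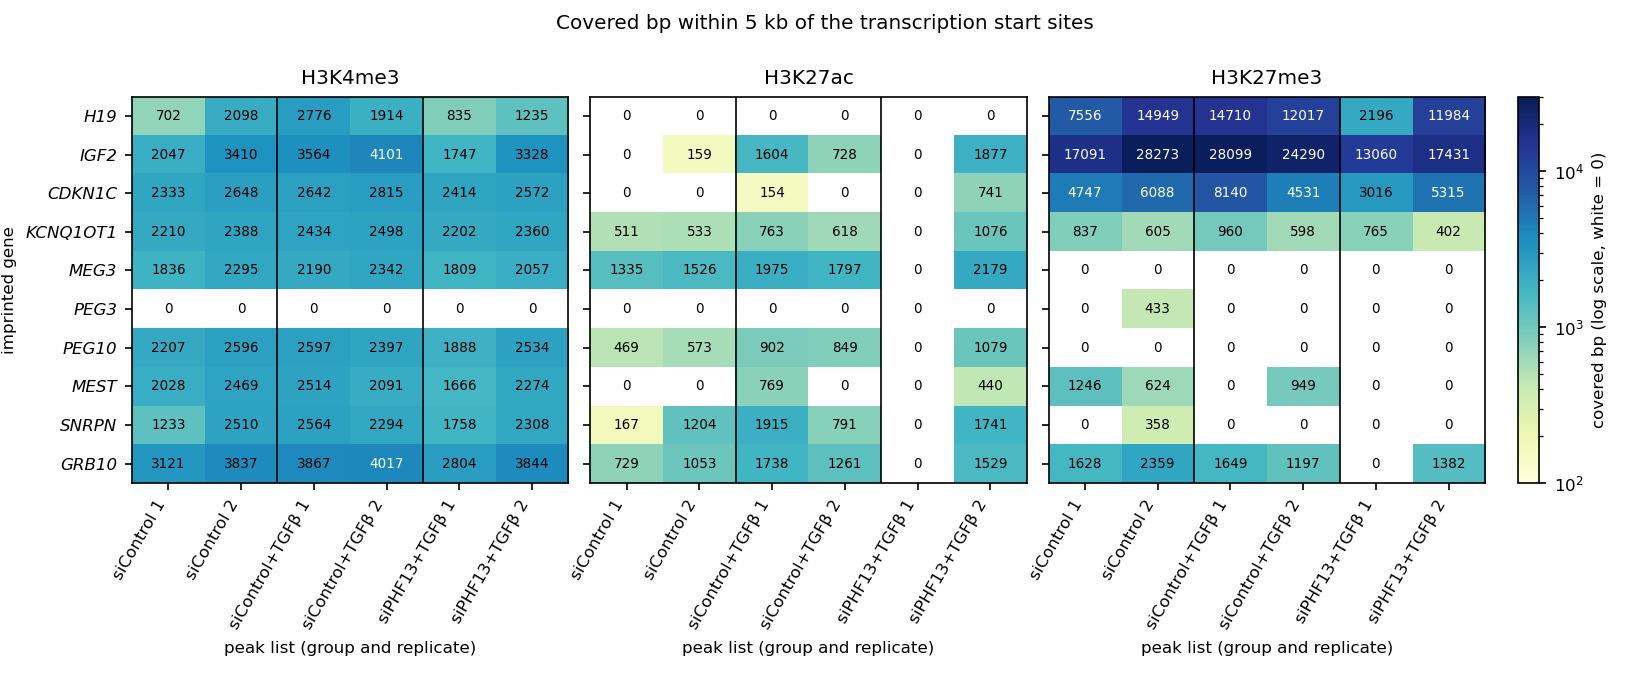
Covered bp within 5 kb of the start sites of 10 imprinted genes (rows) in every list (columns, 3 groups of 2 replicates), for each mark, with the colour on a log scale and white for 0. PEG3 is empty for H3K4me3 and H3K27ac, H19 for H3K27ac, and the column labelled siPHF13+TGFβ 1 is empty for H3K27ac.

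IGF2, a growth factor of fetal tissues expressed from the paternal copy in most tissues, had the longest H3K27me3 cover of the 10 genes. It lies on the minus strand at chr11:2150342-2179621, and its windows span 31105 bp with start sites of IGF2-AS, INS, INS-IGF2 and MIR483. H3K27me3 covered 17091 and 28273 bp without TGFβ, 28099 and 24290 bp under siControl+TGFβ, and 13060 and 17431 bp under siPHF13+TGFβ. Both siPHF13+TGFβ lists were below both siControl+TGFβ lists, and the siControl lists spanned the siControl+TGFβ values. Its strongest H3K27me3 peak ranked, by q-value, within the top 0.456 to 1.65% of the list in 5 lists and at 6.96% in the list labelled siPHF13+TGFβ replicate 1. A single broad peak, for example chr11:2158018-2170760 in siControl replicate 1, ran through the middle of the gene.

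H3K4me3 at IGF2 covered 2047 and 3410 bp under siControl, 3564 and 4101 bp under siControl+TGFβ, and 1747 and 3328 bp under siPHF13+TGFβ. It lay in separate blocks, the main block near chr11:2158669-2161123 in siControl replicate 2, with smaller peaks near chr11:2165137-2165733 and chr11:2173013-2173370. The H3K4me3 blocks thus lay within or beside the broad H3K27me3 domain, and the marks shared 1877 and 3052 bp under siControl, 2945 and 2863 bp under siControl+TGFβ, and 0 and 1629 bp under siPHF13+TGFβ. In the list labelled siPHF13+TGFβ replicate 1 they were 325 bp apart. H3K27ac appeared over the main block with 0 and 159 bp under siControl, 1604 and 728 bp under siControl+TGFβ, and 0 and 1877 bp under siPHF13+TGFβ.

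H19, a long noncoding RNA expressed from the maternal copy beside IGF2, carried H3K27me3 over 7556 and 14949 bp under siControl, 14710 and 12017 bp under siControl+TGFβ, and 2196 and 11984 bp under siPHF13+TGFβ. It lies on the minus strand at chr11:2016396-2025782, with 24 start sites. All 24 had an H3K27me3 peak within 500 bp in at least 1 list, and 12 had one in all 6 lists. H3K4me3 was short, with 702 and 2098 bp under siControl, 2776 and 1914 bp under siControl+TGFβ, and 835 and 1235 bp under siPHF13+TGFβ, and it ranked in the middle of its lists, from the top 37.5% to 69.2%. The H3K4me3 peak present in all 6 lists lay near chr11:2019279-2019856 (siControl replicate 1), inside the annotated gene and away from the RefSeq promoter printed above. It lay beside a group of annotated start sites at chr11:2018897-2019105. These were the 7 of the 24 start sites with H3K4me3 within 500 bp in all 6 lists, and 15 had it in no list. Another H3K4me3 peak, near chr11:2023511-2024179 in siControl replicate 2, was present in every list except siControl replicate 1. The marks shared 1160 to 1497 bp in siControl replicate 2 and both siControl+TGFβ pairs, 253 bp under siPHF13+TGFβ replicate 2, and 0 bp in the other 2 pairs. No H3K27ac peak lay in the H19 window in any list.

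CDKN1C, an inhibitor of cyclin-dependent kinases that restrains growth and is expressed from the maternal copy, was the only one of the 10 genes with H3K4me3 and H3K27me3 overlapping in all 6 pairs of lists, against 3.44% of all genes and 9.21% of the 24076 genes with H3K4me3 in all 6 lists. The gene lies on the minus strand at chr11:2904443-2907005. H3K4me3 covered 2333 and 2648 bp under siControl, 2642 and 2815 bp under siControl+TGFβ, and 2414 and 2572 bp under siPHF13+TGFβ, and it ranked between the top 4.98% and 19% of the lists. H3K27me3 covered 4747 and 6088 bp under siControl, 8140 and 4531 bp under siControl+TGFβ, and 3016 and 5315 bp under siPHF13+TGFβ. The shared length was 622 and 903 bp under siControl, 2642 and 2078 bp under siControl+TGFβ, and 985 and 1830 bp under siPHF13+TGFβ. H3K27me3 lay mainly over the gene body and its downstream side, and in siControl+TGFβ replicate 1 a single peak at chr11:2898818-2909070 spanned the whole promoter. All 6 start sites had H3K4me3 within 500 bp in 6 of 6 lists. H3K27ac was present in 2 lists, with 154 bp in siControl+TGFβ replicate 1 and 741 bp under siPHF13+TGFβ replicate 2. The window also holds the start of SLC22A18AS.

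KCNQ1OT1, a long noncoding RNA transcribed antisense to KCNQ1 from the paternal copy, carried both active marks at its start and H3K27me3 apart from them. H3K4me3 covered 2210 and 2388 bp under siControl, 2434 and 2498 bp under siControl+TGFβ, and 2202 and 2360 bp under siPHF13+TGFβ, a narrow range. H3K27ac spanned 511 and 533 bp, 763 and 618 bp, and 0 and 1076 bp in the same order, on the upstream side of the start except for a peak of 231 bp inside the gene under siPHF13+TGFβ replicate 2. H3K27me3 covered 402 to 960 bp in the 6 lists, and its nearest peak lay 2110 to 3612 bp from the H3K4me3 peak, so the marks coincided in 0 of 6 pairs. The gene lies on the minus strand at chr11:2618538-2721233. Beyond its start, H3K27me3 covered 0.892 to 22.9% of the gene's 102696 bp.

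**Figure D3:**
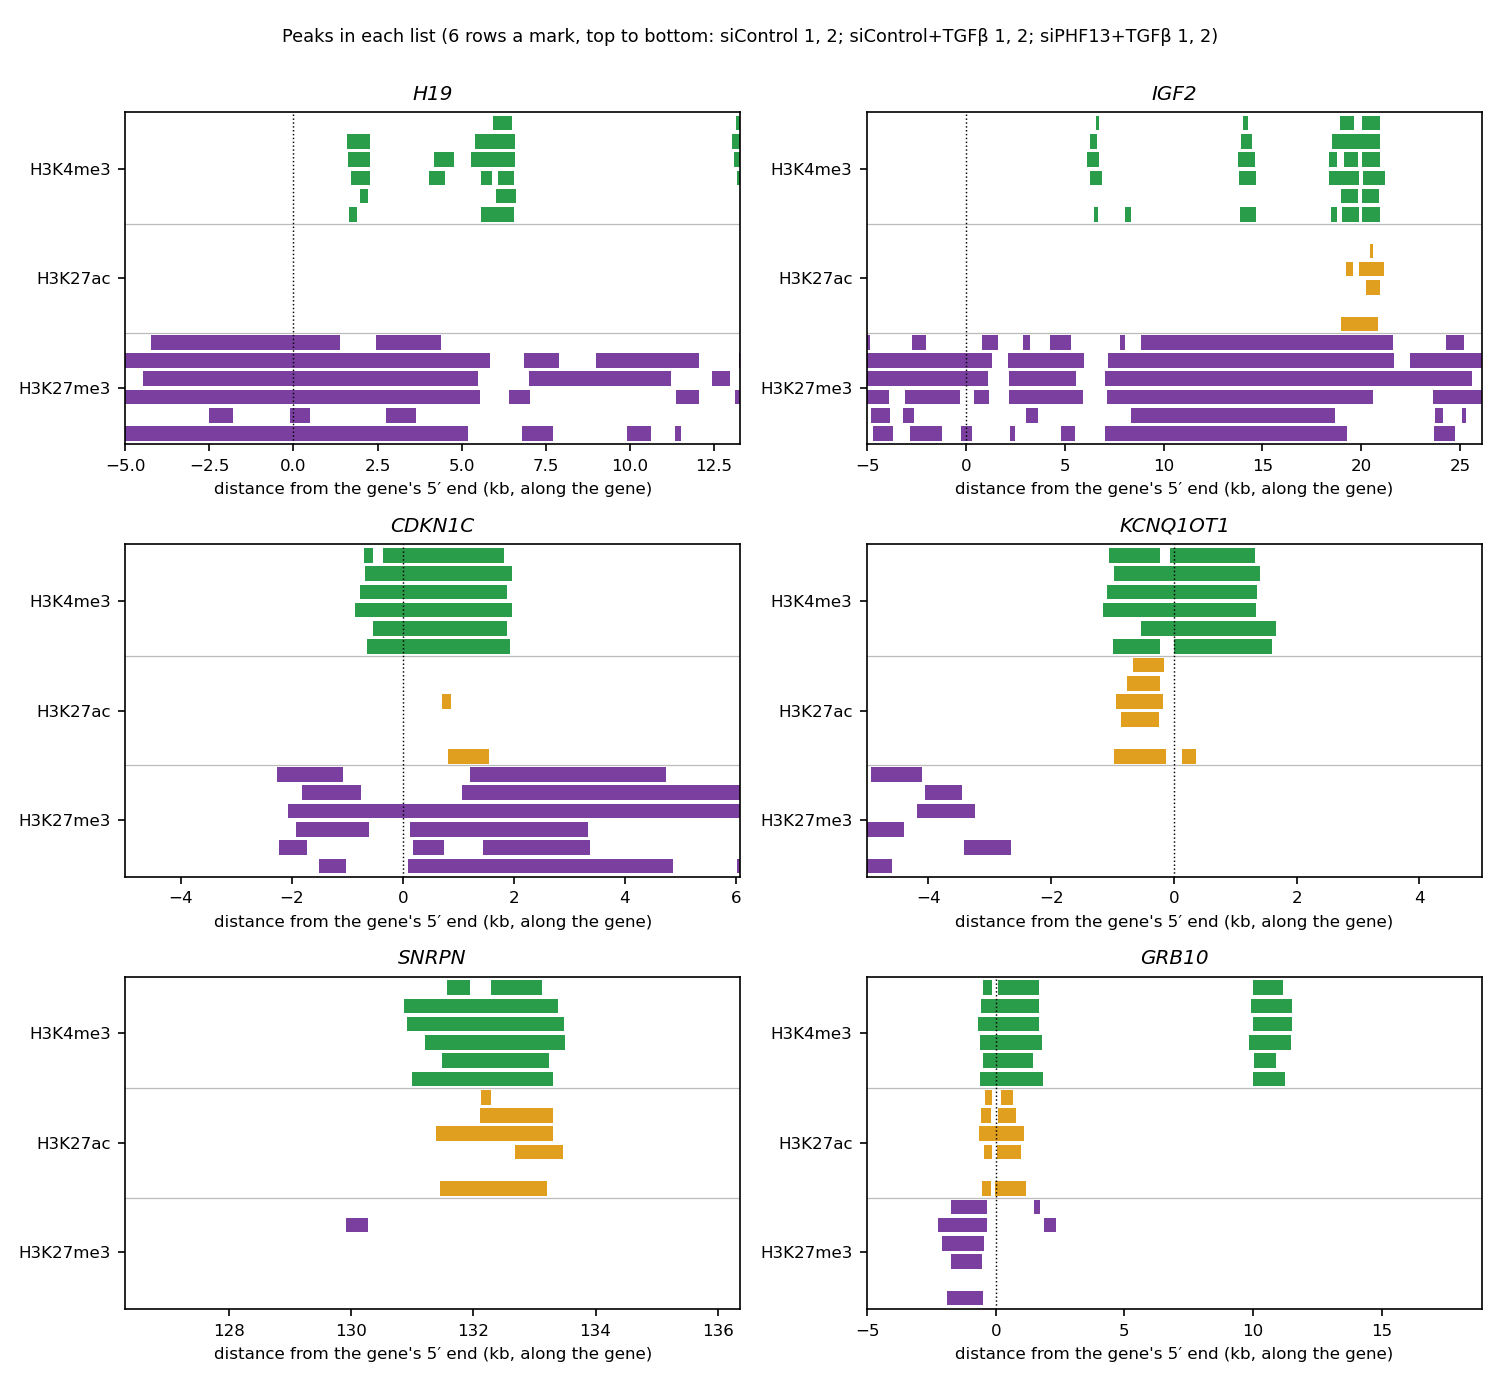
Peaks of each mark (6 rows a mark, 1 a list) by distance from the 5′ end of the gene in kb along the gene, for H19, IGF2, CDKN1C, KCNQ1OT1, SNRPN and GRB10. H3K27me3 and H3K4me3 overlap at CDKN1C in all 6 lists, lie apart at KCNQ1OT1, and within the SNRPN window shown, H3K27me3 is present in 1 list.

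MEG3, a maternally expressed long noncoding RNA, had active marks and no H3K27me3 in any list. H3K4me3 covered 1836 and 2295 bp under siControl, 2190 and 2342 bp under siControl+TGFβ, and 1809 and 2057 bp under siPHF13+TGFβ. H3K27ac spanned 1335 and 1526 bp, 1975 and 1797 bp, and 0 and 2179 bp in the same order, the longest H3K27ac cover of the 10 genes in both siControl lists. Both marks began at the RefSeq starts near chr14:101292195-101292494 and ran into the gene, where 14 of the 34 start sites had H3K4me3 within 500 bp in all 6 lists. The printed promoter itself was touched by H3K4me3 over 3 to 65 bp in 4 lists, and the window of the start site annotated furthest upstream held no peak.

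PEG10, a gene derived from a retrotransposon and expressed from the paternal copy, showed the same marks without H3K27me3 in any list. H3K4me3 covered 2207 and 2596 bp under siControl, 2597 and 2397 bp under siControl+TGFβ, and 1888 and 2534 bp under siPHF13+TGFβ, in separate peaks to each side of the start. H3K27ac spanned 469 and 573 bp, 902 and 849 bp, and 0 and 1079 bp. The H3K27ac peaks lay on the upstream side only, towards SGCE, whose start lies in the same window, so the cover of PEG10 and SGCE could not be separated. PEG3, a zinc finger gene expressed from the paternal copy, had no peak of either active mark at any of its 10 start sites. Its only peak was 433 bp of H3K27me3 in siControl replicate 2, which ranked at 99.9% of its list, among the weakest.

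MEST, a gene of the alpha/beta hydrolase fold expressed from the paternal copy, carried H3K4me3 at both of its promoters, near chr7:130125660-130126916 and chr7:130130992-130132203 in siControl replicate 2. The cover was 2028 and 2469 bp under siControl, 2514 and 2091 bp under siControl+TGFβ, and 1666 and 2274 bp under siPHF13+TGFβ, and the strongest peak ranked between the top 6.65% and 21.0%. H3K27ac was present in 2 lists only, with 769 bp in siControl+TGFβ replicate 1 and 440 bp under siPHF13+TGFβ replicate 2. H3K27me3 lay upstream in 3 lists, namely 1246 and 624 bp without TGFβ and 949 bp for siControl+TGFβ replicate 2, and it stopped 210, 264 and 1288 bp short of the H3K4me3 peak. The window also holds the starts of MESTIT1 and MIR335.

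SNRPN, which encodes a protein of the spliceosome and is expressed from the paternal copy, carried its marks at 1 of 3 separate windows. H3K4me3 covered 1233 and 2510 bp under siControl, 2564 and 2294 bp under siControl+TGFβ, and 1758 and 2308 bp under siPHF13+TGFβ, all of it in the window shared with SNURF, and the windows of the upstream starts held 0 bp. 5 of the 10 start sites had H3K4me3 within 500 bp in all 6 lists and the other 5 in none. H3K27ac spanned 167 and 1204 bp, 1915 and 791 bp, and 0 and 1741 bp. H3K27me3 appeared in these windows in 1 list, with 358 bp in siControl replicate 2, at 601 bp from the H3K4me3 peak.

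GRB10, an adaptor that binds insulin and IGF receptors, had the longest H3K4me3 cover of the 10 genes in 5 of the 6 lists: 3121 and 3837 bp under siControl, 3867 and 4017 bp under siControl+TGFβ, and 2804 and 3844 bp under siPHF13+TGFβ. It lay at 2 promoters, near chr7:50859487-50861737 and chr7:50849650-50851235 in siControl replicate 2, apart from a peak of 174 bp at chr7:50678567-50678740 under siPHF13+TGFβ replicate 2. Only the first of these carried H3K27ac, with 729 and 1053 bp under siControl, 1738 and 1261 bp under siControl+TGFβ, and 0 and 1529 bp under siPHF13+TGFβ. H3K27me3 began at the upstream edge of that promoter and spanned 1628 and 2359 bp, 1649 and 1197 bp, and 0 and 1382 bp. It overlapped H3K4me3 by 57 to 341 bp in 5 of 6 pairs, with a further small peak inside the gene in both siControl lists, and its rank ranged from the top 1.88% to 69.5% of the lists. 13 of the 25 start sites, in the gene's interior, had no H3K4me3 within 500 bp in any list.

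**Figure D4:**
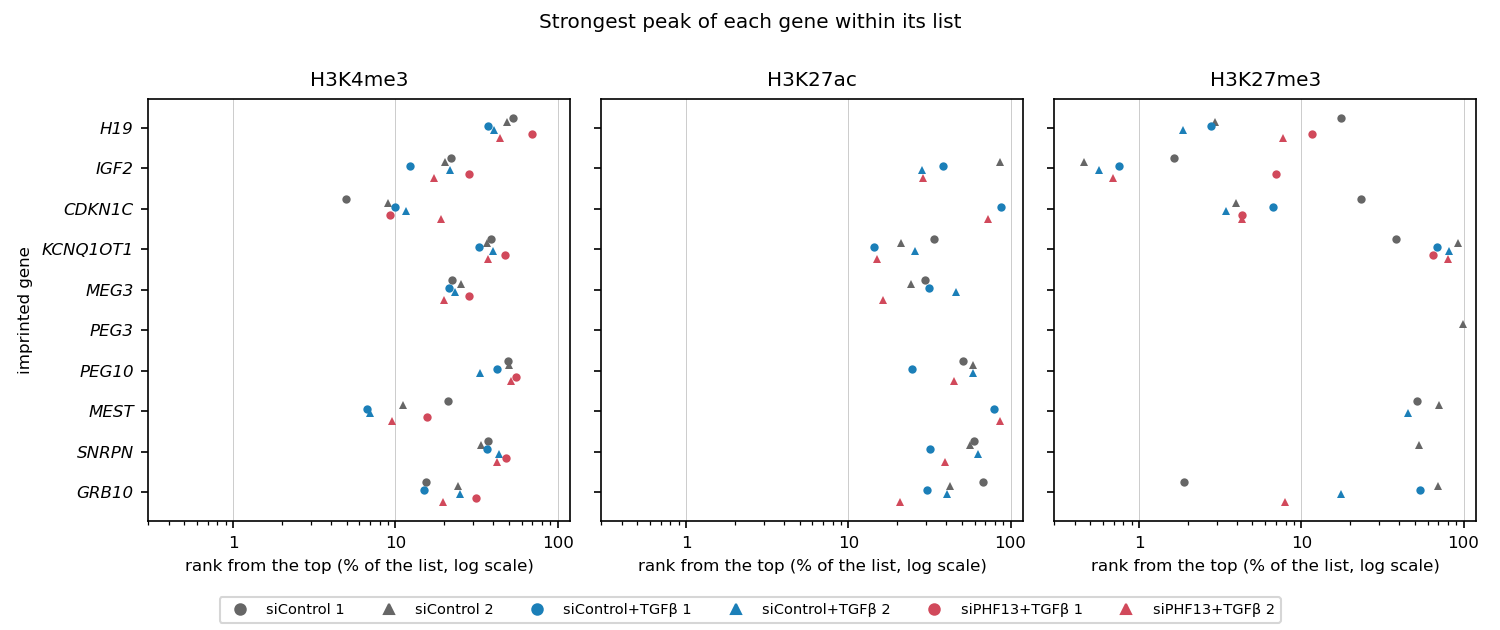
Rank of the strongest peak of each gene from the top of its list, in percent of the list's peaks by q-value on a log scale, 1 point a list, coloured by group. IGF2 H3K27me3 lies at 0.456 to 6.96%, and CDKN1C H3K4me3 at 4.98 to 19%.

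Across the 10 genes, H3K4me3 and H3K27me3 shared bases in at least 1 pair at 4 (CDKN1C, IGF2, GRB10 and H19), against 10.8% of all genes. Without the libraries labelled siPHF13+TGFβ replicate 1, IGF2, CDKN1C and GRB10 did so in all remaining pairs. No share of all genes was counted without those libraries. H3K27ac and H3K27me3 shared bases at IGF2 in 4 pairs, at GRB10 in 4 and at CDKN1C in 2, 3 of the 10 genes against 1.87% of all genes with at least 1 such pair, and in all 6 pairs at none, against 0.0745%. A shared base does not place both marks on the same allele or in the same cell.

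In the comparison of siControl+TGFβ with siControl, no imprinted gene passed the test for any mark. The test was limma with Benjamini-Hochberg adjustment on log2(covered bp + 100) over all genes with cover in at least 2 of the 6 lists. It called 107 of 27272 genes for H3K4me3 (0.392%), and 0 of 21715 for H3K27ac (0%) and 0 of 24462 for H3K27me3 (0%). At an unadjusted p under 0.05 the latter gave 245 genes for H3K27ac and 474 for H3K27me3. 9 of the 10 genes could be tested for H3K4me3, 8 for H3K27ac and 6 for H3K27me3. The largest change was H3K27ac at IGF2, with a log2 change of 2.88 ± 1.50 (SE) and an adjusted p of 0.992 by limma. That SE was 1.50 at all 8 genes tested for H3K27ac, so it is a spread shared over genes and not that of IGF2 alone. The fit behind it also included the short list labelled siPHF13+TGFβ replicate 1. With the 4 libraries of the comparison only, the lowest adjusted p of an imprinted gene for H3K27ac was 0.46 by limma.

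For H3K4me3, both siControl+TGFβ lists were above both siControl lists at 3 genes, IGF2, KCNQ1OT1 and GRB10, against 46.0% of the genes tested, and below at 0, against 2.20%. At IGF2 the mean was 2728.5 ± 964 bp without TGFβ and 3832.5 ± 380 bp with it (SD, n = 2). For H3K27ac, the 5 genes IGF2, KCNQ1OT1, MEG3, PEG10 and GRB10 were higher, against 54.4%, and 0 were lower, against 0.0921%. The means without and with TGFβ were 1430.5 ± 135 and 1886 ± 126 bp at MEG3 and 521 ± 73.5 and 876 ± 37.5 bp at PEG10 (SD, n = 2). For H3K27me3 the groups overlapped at all 10 genes, and 4.95% of the genes tested were higher and 8.11% lower. The test held 9 of the 10 genes for H3K4me3 and, since H19 and PEG3 had no H3K27ac in any list, 8 for H3K27ac. The median log2 change over all genes was 0.14 for H3K4me3, 0.61 for H3K27ac and 0.06 for H3K27me3.

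Taken as the peak names have them, the groups gave another result. The lists labelled siPHF13+TGFβ overlapped the siControl lists at all 10 genes for both active marks, while 2.05% of the genes tested were higher and 18.7% lower for H3K4me3, and 0.138% higher and 0.253% lower for H3K27ac. For H3K27me3, MEST and GRB10 were lower and 0 genes higher, against 13.3% lower and 0.343% higher. At MEST both lists labelled siPHF13+TGFβ held 0 bp, and at GRB10 they held 0 and 1382 bp.

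In the comparison of siPHF13+TGFβ with siControl+TGFβ, again no imprinted gene passed the limma test, which called 132 of 27272 genes for H3K4me3 (0.484%), 0 of 21715 for H3K27ac (0%) and 0 of 24462 for H3K27me3 (0%). At an unadjusted p under 0.05, 24 genes for H3K27ac and 574 for H3K27me3 were reached. The lowest adjusted p of an imprinted gene by limma was 0.453, at H19 and IGF2 for H3K4me3. Over both comparisons, 0 of 46 tests of an imprinted gene had an unadjusted p under 0.05. An exact permutation test of 2 against 2 libraries cannot go below p = 0.333.

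H3K4me3 was lower in both lists labelled siPHF13+TGFβ at 6 genes, H19, IGF2, CDKN1C, KCNQ1OT1, MEG3 and GRB10, against 59.7% of the genes tested, and higher at 0, against 0.418%. At H19 the mean was 1035 ± 283 bp against 2345 ± 610 bp (SD, n = 2), a log2 change of -1.11 ± 0.56 (SE), and the median over all genes was -0.24. With replicate 2 alone the same 6 genes were lower, against 61.1%, and 0 higher, against 11.6%. At GRB10, KCNQ1OT1 and CDKN1C that margin was small, for example 3844 against 3867 bp at GRB10, where 3670 of the 3844 bp lay in the window of its main promoters.

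H3K27ac gave opposite answers in the lists labelled siPHF13+TGFβ. Replicate 1 held 0 bp at all 10 genes, while replicate 2 held more than both siControl+TGFβ lists at 5 genes, IGF2, CDKN1C, KCNQ1OT1, MEG3 and PEG10. Over all genes tested, replicate 2 was higher at 30.6% and lower at 10.9%. With both replicates the groups overlapped at all 10 genes, and 0.0553% of the genes tested were higher and 10.9% lower. With replicate 2 left out and the lone library assumed to vary like the other groups, limma called 15366 of 21715 genes, and IGF2, KCNQ1OT1, MEG3, PEG10 and GRB10 were among them, with a lowest adjusted p of 0.00898. These calls rest on the short list.

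H3K27me3 was lower in both lists labelled siPHF13+TGFβ at 2 genes, H19 and IGF2, against 26.9% of the genes tested, and higher at 0, against 1.14%. At IGF2 the mean was 15245.5 ± 3091 bp against 26194.5 ± 2693 bp (SD, n = 2), a log2 change of -0.79 ± 0.85 (SE) beside a median of -0.94 over all genes. At H19 replicate 2 lay just below, with 11984 against 12017 bp. With replicate 2 alone, H19, IGF2 and KCNQ1OT1 were lower, against 27.6%, and 0 were higher, against 32.4%.

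**Figure D5:**
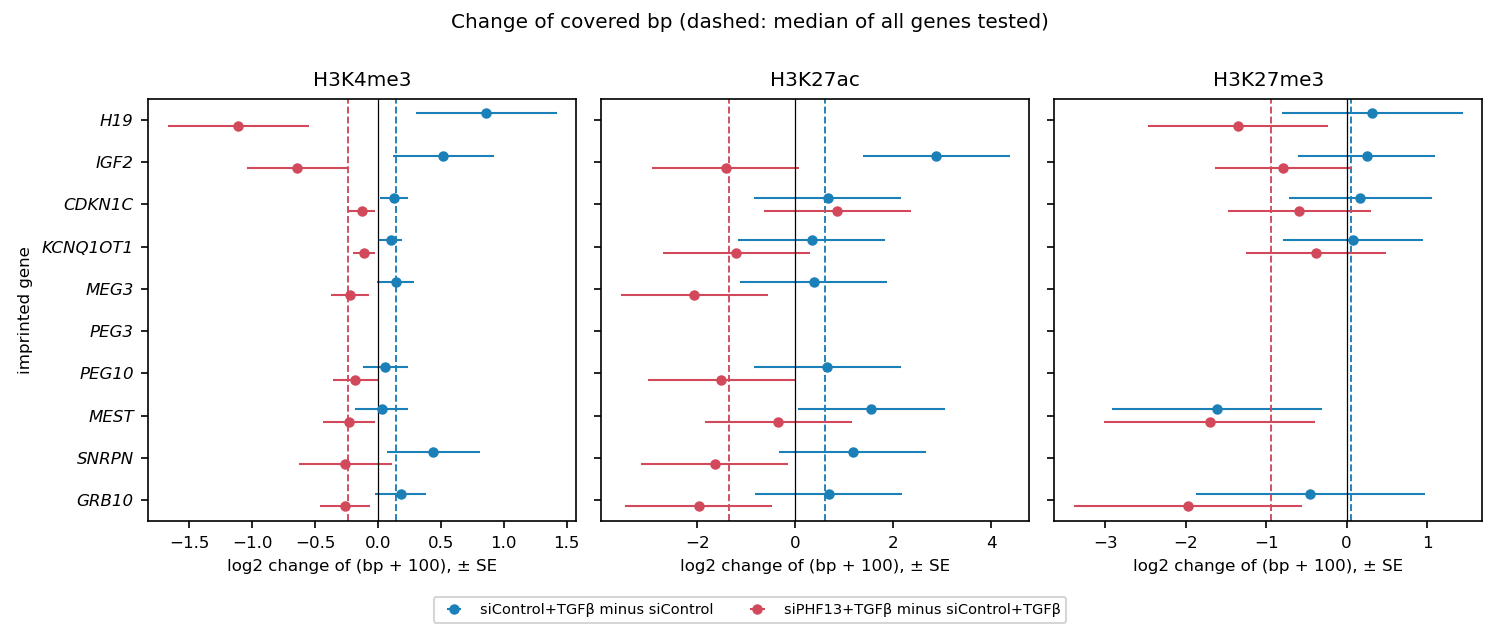
Log2 change of covered bp + 100 with its SE from limma for each imprinted gene and mark, for both comparisons as labelled (blue, siControl+TGFβ minus siControl; red, siPHF13+TGFβ minus siControl+TGFβ), with dashed lines at the median of all genes tested. H19 has the largest H3K4me3 changes, 0.86 and -1.11, and IGF2 the largest H3K27ac change, 2.88.

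34 other imprinted genes gave a wider view. H3K4me3 was present in all 6 lists at 23 of them, H3K27ac at 4 and H3K27me3 at 12. H3K4me3 and H3K27me3 coincided in all 6 pairs at 3. These were KCNQ1, the potassium channel gene that hosts KCNQ1OT1, ASCL2, a transcription factor of the placenta and stem cells on the same chromosome, and PLAGL1, a zinc finger gene. PLAGL1 held H3K4me3 over 2892 to 3586 bp and H3K27me3 over 5177 to 26394 bp. Of the genes whose windows overlap those of the 10, SGCE held 1888 to 2860 bp of H3K4me3, SNURF and MESTIT1 repeated the values of their neighbours in whole or in part, ZIM2 held no peak, and INS held H3K27me3 over 1915 to 9426 bp.

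None of the 34 passed limma in either comparison for any mark, with a lowest adjusted p of 0.453. As labelled, both siControl+TGFβ lists were above both siControl lists at 8 of the 34 for H3K4me3, against 46.0% of all genes tested, and at 9 for H3K27ac, against 54.4%. Both siPHF13+TGFβ lists were below both siControl+TGFβ lists at 14 for H3K4me3, against 59.7%, and at 8 for H3K27me3, against 26.9%. These percents cover only genes with cover in at least 2 lists. Of the 34, 8 had no H3K4me3, 16 no H3K27ac and 14 no H3K27me3 in any list. The counts out of 34 are therefore low beside the percents and cannot be set against them directly. SLC22A18, a transporter gene near CDKN1C, had the largest difference in mean with TGFβ for both active marks: its H3K27ac was 936 and 1487 bp under siControl, 3996 and 2722 bp under siControl+TGFβ, and 0 and 4043 bp under siPHF13+TGFβ. MEG8, a noncoding RNA downstream of MEG3, held 0 and 166 bp of H3K27ac without TGFβ and 2433 and 864 bp under siControl+TGFβ. For H3K27me3, ASCL2 had 6790 and 8430 bp without TGFβ and 10001 bp in both siControl+TGFβ lists, and BLCAP held 1932 and 3192 bp against 467 and 912 bp. KCNQ1 and GNAS had the largest H3K27me3 differences in bp between the groups labelled siPHF13+TGFβ and siControl+TGFβ, of -6368.5 and -5773 bp. Their windows span 31117 and 54053 bp, and their log2 changes were -0.59 ± 0.88 and -0.70 ± 0.90 (SE). Of all genes tested, 66.3% and 61.4% had a log2 change as low or lower. The list labelled siPHF13+TGFβ replicate 1 held 10033 and 6979 bp there, and replicate 2 held 20260 and 15588 bp. MKRN3 and ATP10A were among the largest for H3K4me3. MKRN3 had -651.5 bp for siPHF13+TGFβ against siControl+TGFβ, and ATP10A had 682.5 bp with TGFβ.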

How the data were processed

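ChIP-seq of H3K4me3, H3K27ac and H3K27me3 was done in PANC-1 cells, with 18 libraries in 3 groups and 6 inputs not analysed here. Per the study's methods and the submitters' processing notes, reads were trimmed (Trim Galore 0.4.1), aligned to hg19 (Bowtie2 2.4.1), freed of PCR duplicates (Picard), and peaks were called per library against input by MACS2 2.2.7.1, narrow for H3K4me3 and H3K27ac and broad for H3K27me3. The deposited lists give the authors' display score, a fold enrichment ratio, and the -log10 p-value and -log10 q-value of each peak. Narrow lists reach down to a -log10 q of 1.30, below the threshold of 3 in the methods. Reads are not in these lists, so their depth is unknown. The experiments were done in duplicate, and nothing states that the libraries came from separate cultures, so p-values measure the spread between these libraries only.

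Covered bp per gene was counted in merged windows of 5 kb to each side of all GENCODE 44 TSSs (lifted to GRCh37), with coordinates 1-based. Ranks used the -log10 q column. limma 3.58.1 in R 4.3.3 was run on log2(bp + 100) over all genes covered in at least 2 of 6 lists of a mark, with 1 fit over the 3 groups. Fold changes on this scale understate the change of short cover. Coincidence was at least 1 bp shared by the lists of the same group and replicate number. The counting of covered bp and the limma fit were tested on simulated data. The 10 genes, the list of 34 other imprinted genes and the motifs were chosen with earlier results of these data known. All 10 genes are named; of the 34, those whose windows overlap theirs, those coinciding in all 6 pairs, and up to 2 per mark and comparison with the largest difference among those whose groups do not overlap. Alternatives changed the window, the start sites, the peak threshold, the list length, the pseudocount, the filter, the centring, the replicate block and the libraries, and, chosen after seeing the data, the groups as the peak names have them.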

Additional observations from a re-analysis of the deposited data

How the results depend on the processing

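No imprinted gene was called by limma as reported, nor in 90 of the 91 alternative fits. The exception, H3K27ac in siPHF13+TGFβ against siControl+TGFβ without siPHF13+TGFβ replicate 2, called 15366 genes (0 in the other such fits) and 5 of the 10. The number of genes called for H3K4me3 (107 with TGFβ and 132 with depletion) depended on the settings, and the cause was not tested. It was 195 and 242 with a pseudocount of 10 bp, 0 and 0 with 1000 bp, 46 and 64 with each library centred on its median, 39 and 205 with the 4 libraries of the comparison, and 311 and 454 with the 50% strongest peaks. With lists of equal length depletion gave 69. Leaving out 1 library gave 0 with TGFβ and 0 to 179 with depletion, where it was 0 without either siControl+TGFβ library or siPHF13+TGFβ replicate 1. With the replicate number as a block both counts were 0. Replicate numbers did not pair the samples (correlations of deviations from -0.33 to 0.45 over pairs of groups), so this block is only another fit, and it changed no call of an imprinted gene.

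For the counts that follow, shares of all genes were counted only with groups as in the peak names and without siPHF13+TGFβ replicate 1. Those shares are given above, and the other counts cannot be read against all genes. The number of the 10 genes whose groups do not overlap moved as follows. With the 5′ end of each gene as the only start it was 3 for H3K4me3 with depletion, 3 for H3K27ac with TGFβ and 1 for H3K27me3 with depletion. With lists of equal length it was 0 for H3K27ac with TGFβ and 1 for H3K27me3 with depletion. Equal length cut every H3K27ac list to 6004 peaks, and only 2 of the 10 genes could then be tested for H3K27ac. That H3K27ac count therefore had little room to differ from 0. With the 50% strongest peaks the number was 1 for H3K27me3 with depletion, and with windows of 2.5 kb it was 1, CDKN1C, for H3K27me3 with TGFβ. With groups as in the peak names it was 0 for both active marks and 2 for H3K27me3, and limma called 0 genes for H3K4me3. Leaving out 1 library, which makes non-overlap easier, gave 3 to 9 and 6 to 9 for H3K4me3, 5 to 8 and 0 to 6 for H3K27ac, and 3 to 5 and 3 to 5 for H3K27me3, with TGFβ and with depletion.

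With the 5′ end only, H3K4me3 was present in all lists at 5 genes. Without 1 library, H3K27ac was present in all remaining lists at 0 to 5 genes, and H3K4me3 and H3K27me3 coincided in all pairs at 1 to 3, in each case the higher count without siPHF13+TGFβ replicate 1. No share of all genes was counted for these settings. The mean H3K4me3 difference at IGF2 with TGFβ turned to -667 bp with the 50% strongest peaks, and that of H3K27ac at MEG3 to -459.5 bp with lists of equal length. Those H3K27ac lists held only 6004 peaks each. Of 520 recomputed differences of single genes, 474 stayed within 1 pooled SD. A threshold of 3 on -log10 q, at least 200 bp, and all 12 pairs of lists moved no count by over 1.5 times. Lists without reads give no measure of depth, so a missing peak may be a weak one.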
